A study of Mus musculus with 8 samples.

Results

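Respiratory complex I is the NADH:ubiquinone oxidoreductase of the inner mitochondrial membrane. The genes described here are its nuclear-encoded subunit genes in mouse, taken by symbol: every symbol that consists of Nduf, one of the letters a, b, c, s or v or the pair ab, and a number, with assembly factors left out. The rule found 37 genes among the 22869 gene symbols of the deposited table. For a gene with several table rows, the row with the highest mean count over the 8 libraries was kept. All 37 passed the filter on low counts, with at least 141 counts in each library.

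Complex I takes electrons from NADH, passes them along iron-sulfur clusters to ubiquinone and pumps protons across the inner membrane. It is L-shaped, with a matrix arm that oxidises NADH and a membrane arm that pumps. Core subunits carry out the chemistry and accessory subunits surround them. Neurons depend heavily on oxidative phosphorylation, and loss of complex I subunits causes neurological disease such as Leigh syndrome. The core of the membrane arm is encoded by mitochondrial DNA, and the deposited table held 0 rows under those symbols, so it is not analysed here.

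The libraries were made from cortex of APP/PS1 mice, a transgenic line on the C57BL/6 background that forms amyloid plaques. Treated mice received bexarotene, an agonist of retinoid X receptors (4 libraries), and the control mice received glycerol at 0.2 mg/kg, called vehicle here (4 libraries). All 8 libraries thus carry the transgenes. Age, sex, the dose and length of treatment and the promoter of the transgenes are not stated in the labels. Nothing in the labels says how many animals a library holds, so a p-value reflects the spread from library to library, which may be technical.

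Summed over 1 row per gene, the libraries held 41590253 to 52479182 counts under bexarotene and 29089954 to 41844255 under vehicle. Bexarotene replicates 1 and 3 correlated at 0.993 in log2 CPM (CPM being the count scaled to a common library total), the highest of any pair of libraries, and the first principal component (36.5% of the variance) set replicates 1 and 3 of both groups on one side and replicates 2 and 4 on the other. Xist and Y-linked transcripts were both present in each bexarotene library (84.7 to 218 CPM and 9.81 to 88.5 CPM), whereas a vehicle library held either one or the other, with the lower reaching no more than 0.861 CPM for Xist and 0.282 CPM for the Y-linked sum. Striatal markers summed to 1066 and 779 CPM in bexarotene replicates 1 and 3, 221 to 225 CPM in the other bexarotene libraries and 176 to 528 CPM under vehicle. Choroid plexus markers reached 1444 CPM in bexarotene replicate 2. They lay at 65.8 to 224 CPM in the other bexarotene libraries and at 12.2 to 38.7 CPM under vehicle. Neuron markers, among them Snap25 and Rbfox3, summed to 4132 to 5813 CPM under bexarotene and 4902 to 5686 CPM under vehicle. Microglial markers summed to 256 to 333 CPM under bexarotene and 208 to 246 CPM under vehicle. Liver markers reached 1500 CPM in bexarotene replicate 2, with 93.1 to 251 CPM in the other bexarotene libraries and 6.87 to 136 CPM under vehicle. The liver and choroid plexus lists share the gene Ttr, so their sums are not separate measures. The part of these marker transcripts in the results below was not tested. Values given library by library follow replicates 1 to 4. In bulk tissue, fewer cells of a type and less RNA per cell cannot be told apart.

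Transcripts of complex I subunits were modestly higher in the bexarotene libraries. Of the 37 genes, 35 lay above 0 on the log2 scale, against 50.2% of all 16069 genes tested, and the median was 0.28, against 0.0009 for all genes. In 24 genes each bexarotene library lay above each vehicle library, which was the case for 3.61% of all genes, and in 0 genes was the order the opposite, against 2.16%. After correction for transcript length and GC content, the median was 0.13, against -0.02 for all genes. Then 13 genes were separated upward, against 1.98% of all genes, and 2 downward, against 2.28%. Subunit transcripts are short: 16 of the 37 lay under 700 nt and 9 from 700 to under 1000 nt. Among all genes of these lengths with a mean above 2 log2 CPM, 85.8% and 88.3% were higher before that correction. Separated upward were 27.8% and 18.2% of them, and at most 11.1% of genes in the longer ranges. The difference was largest for Ndufa3, Ndufab1, Ndufs6, Ndufc1 and Ndufa5, whose log2 fold changes exceeded 0.5, and 17 further genes lay between 0.25 and 0.5.

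None of these differences passed the main test for a single gene. In edgeR's quasi-likelihood test with Benjamini-Hochberg adjustment over all 21285 rows tested, 0 of the 37 had an adjusted p below 0.05, against 0.00622% of all genes (1 gene) in the upward direction. At an unadjusted p under 0.05, 27 of the 37 were higher, against 4.88% of all genes, and 0 were lower, against 3.89%. The adjusted p ranged from 0.0975 for Ndufa3 to 0.982 for Ndufs1. limma voom called 0 of them as well. DESeq2 called 9, all higher, against 0.436% of all genes: Ndufa1, Ndufa2, Ndufa3, Ndufa5, Ndufb11, Ndufc1, Ndufs6, Ndufs8 and Ndufv3. Its adjusted p ranged from 8.16e-08 for Ndufa3 to 0.0452 for Ndufs8, and it gave none for Ndufab1 and Ndufb4.

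**Figure D1:**
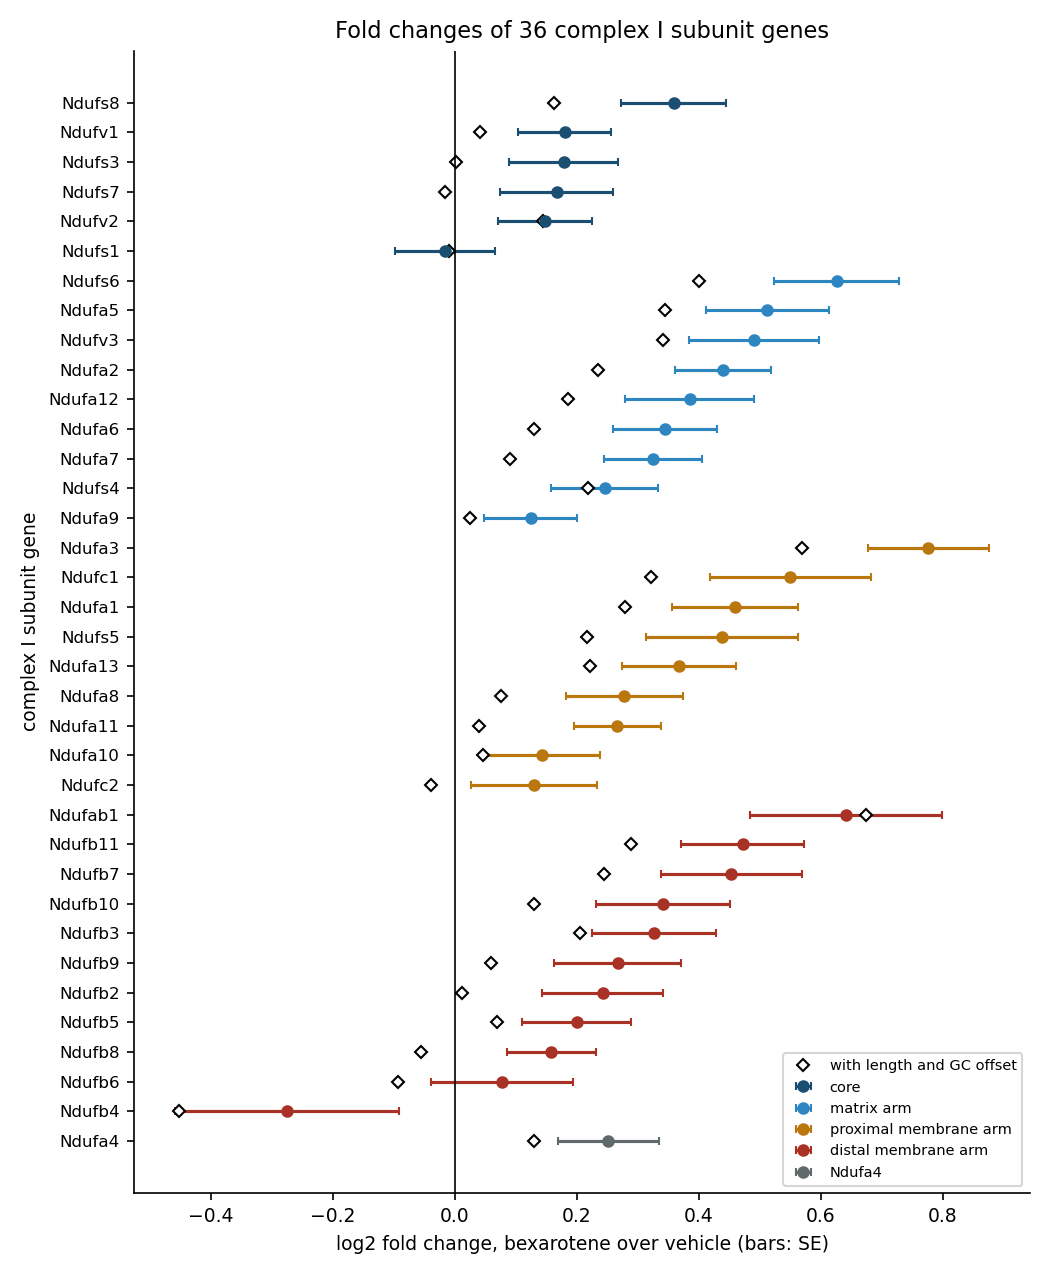
Log2 fold change of 36 subunit genes, bexarotene over vehicle, from edgeR's quasi-likelihood fit, grouped by place in the complex. Filled points carry bars of 1 SE, and open diamonds give the value after correction for transcript length and GC content; 34 filled points and 30 diamonds lie above 0.

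The core subunits had the smallest median of the arms of the complex. Their transcripts were also longer, with a median of 1623 nt. For the accessory genes of the matrix, proximal membrane and distal membrane arms it was 590, 545 and 732 nt. Among 7 nuclear-encoded core genes, 6 lay above 0 on the log2 scale, the median being 0.17 and the range -0.02 to 0.36. In 4 the groups did not overlap, with bexarotene higher, against 3.61% of all genes. Among genes above 2 log2 CPM from 1500 to under 2000 nt, this share was 5.53%, and 68.2% lay above 0. Ndufs8, which carries iron-sulfur clusters close to the quinone site, was the core gene with the largest difference. It was at 66.3, 53.3, 62.1 and 54.5 CPM in the 4 bexarotene libraries, against 47.4, 45.5, 44.3 and 47 CPM in the 4 vehicle libraries. The groups did not overlap, replicates 1 and 3 were the highest of the bexarotene libraries, and the vehicle libraries lay close together. The log2 fold change of Ndufs8 came to 0.36 ± 0.09 (SE; adjusted p 0.375, edgeR).

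Ndufv1, which binds NADH and the flavin where electrons enter, was at 136, 129, 131 and 133 CPM in the 4 bexarotene libraries, against 112, 126, 108 and 121 CPM in the 4 vehicle libraries. Ndufv2, the iron-sulfur protein beside it, was at 83.8, 86.8, 86.1 and 78.6 CPM in the 4 bexarotene libraries, against 77.0, 70.5, 82.7 and 72.4 CPM in the 4 vehicle libraries. Ndufv1 showed no overlap, while for Ndufv2 vehicle replicate 3 lay above bexarotene replicate 4. The log2 fold change was 0.18 ± 0.08 (SE) for Ndufv1. For Ndufv2 it was 0.15 ± 0.08 (SE).

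Ndufs3, a scaffold of the module that leads to the quinone site, was at 13.1, 13.9, 12.9 and 13.5 CPM in the 4 bexarotene libraries, against 11.9, 11.4, 12.3 and 11.6 CPM in the 4 vehicle libraries. For Ndufs3 the bexarotene libraries lay above the vehicle libraries, by small margins. Ndufs7, which holds the last iron-sulfur cluster before ubiquinone, was at 83.6, 73.2, 80.4 and 69.8 CPM in the 4 bexarotene libraries, against 63.6, 77.9, 67.0 and 64.8 CPM in the 4 vehicle libraries. In Ndufs7 vehicle replicate 2 exceeded bexarotene replicates 2 and 4, so the groups overlapped. The log2 fold changes of Ndufs3 and Ndufs7 were 0.18 and 0.17, with adjusted p of 0.623 and 0.663 in edgeR's test.

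Ndufs1, the largest subunit and an iron-sulfur protein, had a difference near 0. It was at 89.5, 97.4, 92.6 and 94.9 CPM in the 4 bexarotene libraries, against 96.6, 82.4, 99.8 and 99.7 CPM in the 4 vehicle libraries. The bexarotene libraries lay inside the range of the vehicle libraries. Its log2 fold change was -0.02 ± 0.08 (SE), a sign that turned with upper quartile normalization (0.02), and its 4 table rows, which differ in annotated isoform, gave -0.01 to -0.02. These rows may count the same reads, so they are not separate measurements.

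Accessory subunits of the matrix arm were all higher under bexarotene (9 of 9). Their median on the log2 scale was 0.39, and in 7 the groups did not overlap, against 3.61% of all genes separated upward. Among genes above 2 log2 CPM under 700 nt, the range that holds this arm's median length, this share was 27.8%, and 85.8% were higher. Ndufs6, a zinc-binding subunit needed late in assembly of the arm, was at 26.5, 23.5, 25.7 and 22.4 CPM in the 4 bexarotene libraries, against 13.6, 17.0, 16.2 and 16.8 CPM in the 4 vehicle libraries. Each bexarotene library exceeded the highest vehicle library by more than 5 CPM, and vehicle replicate 1 was the lowest. On the log2 scale Ndufs6 stood at 0.63 ± 0.10 (SE), with the sixth smallest p of all genes (adjusted p 0.337, edgeR). A processed pseudogene, Ndufs6b, holds a near-identical stretch, so reads may be shared between them.

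Ndufa2, which has a thioredoxin-like fold, was at 56.7, 47.2, 51.1 and 49.5 CPM in the 4 bexarotene libraries, against 35.8, 39.0, 38.7 and 37.3 CPM in the 4 vehicle libraries. Ndufa5, an accessory subunit that sits against the quinone module, was at 48.1, 40.4, 49.8 and 42.2 CPM in the 4 bexarotene libraries, against 28.7, 35.3, 29.5 and 33.2 CPM in the 4 vehicle libraries. In both genes the lowest bexarotene library lay above the highest vehicle library. Ndufv3, which in mammals exists as a short and a long isoform, was at 47.9, 39.5, 43.8 and 37.6 CPM in the 4 bexarotene libraries, against 26.5, 29.9, 34.3 and 29.3 CPM in the 4 vehicle libraries for the row of the long transcript. The groups were again separate, and bexarotene replicate 4 and vehicle replicate 3 lay nearest to each other. The row of the short transcript of Ndufv3 averaged 35.5 CPM with bexarotene, against 24.8 CPM with vehicle, a log2 fold change of 0.52 beside 0.49 for the long one. Both rows may count the same reads, so they are not separate measurements of the isoforms. Log2 fold changes were 0.44 ± 0.08 (SE) for Ndufa2 and 0.51 ± 0.10 (SE) for Ndufa5, each with an adjusted p of 0.36.

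The other 5 accessory subunits of the matrix arm were higher by less. Ndufa12, which takes the place of an assembly factor late in the process, averaged 19.0 ± 1.20 CPM with bexarotene, against 14.5 ± 1.65 CPM with vehicle (SD, n = 4). Ndufa6, a protein of the LYR family that binds the acyl carrier protein, averaged 55.8 ± 4.39 CPM with bexarotene, against 44.0 ± 2.86 CPM with vehicle, and Ndufa7 44.6 ± 3.59 CPM with bexarotene, against 35.6 ± 1.45 CPM with vehicle. No overlap was seen in these 3 genes. Ndufs4, whose loss causes a Leigh-like disease in mice, averaged 38.2 ± 3.41 CPM with bexarotene, against 32.2 ± 1.66 CPM with vehicle, and Ndufa9, which binds NADPH, 70.5 ± 0.856 CPM with bexarotene, against 64.7 ± 5.22 CPM with vehicle. In Ndufs4 and Ndufa9 the groups overlapped, and the log2 fold changes were 0.25 and 0.12.

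**Figure D2:**
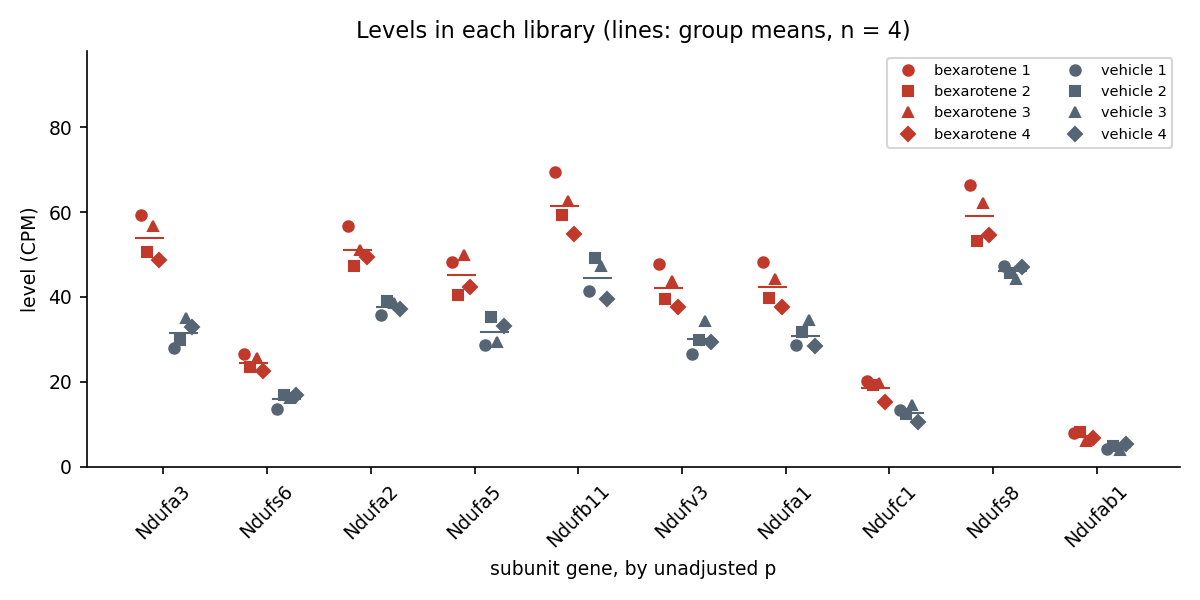
Level in CPM (vertical axis, from 0) of the 10 subunit genes with the smallest unadjusted p, in each of the 4 bexarotene libraries (red, left) and the 4 vehicle libraries (grey, right), with symbols for replicates 1 to 4 and lines at the group means. In each of the 10 genes all red points lie above all grey ones, and for Ndufa3 they span 48.6 to 59.4 CPM against 27.9 to 35.1 CPM.

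Among accessory subunits at the base of the membrane arm, 9 of 9 were higher, by a median of 0.37 on the log2 scale. In 6 the groups did not overlap, against 3.61% of all genes separated upward and 27.8% of those under 700 nt above 2 log2 CPM. Of the genes under 700 nt at that level, 85.8% were higher. Ndufa3, a small membrane subunit, showed the largest difference of the 37. It was at 59.4, 50.6, 56.7 and 48.6 CPM in the 4 bexarotene libraries, against 27.9, 29.8, 35.1 and 32.9 CPM in the 4 vehicle libraries. The lowest bexarotene library exceeded the highest vehicle library by more than 13 CPM, and replicates 1 and 3 were again highest within the bexarotene group. Ndufa3 was 1.71-fold higher, a log2 fold change of 0.78 ± 0.10 (SE), with the third smallest p of all genes (adjusted p 0.0975, edgeR). Replicates 1 and 3 gave a log2 difference of 0.89, and replicates 2 and 4 gave 0.66.

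Ndufa3 stood above the median of the subunit genes in each bexarotene library and below it in each vehicle library. Its log2 level relative to its own mean over the 8 libraries, minus the median of the same value over all 37 genes, was 0.27, 0.20, 0.25 and 0.19 in bexarotene replicates 1 to 4, against -0.32, -0.38, -0.13 and -0.15 in vehicle replicates 1 to 4. Between the groups this ratio differed by 0.47, and by 0.49 and 0.46 in the replicate subsets 1 with 3 and 2 with 4. The gene was singled out for its size of change, so no test is given for this ratio.

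Ndufa1, an X-linked membrane subunit needed for assembly, was at 48.2, 39.8, 44.2 and 37.6 CPM in the 4 bexarotene libraries, against 28.6, 31.8, 34.5 and 28.4 CPM in the 4 vehicle libraries. Ndufc1, the subunit gene with the shortest transcript (315 nt), was at 20.3, 19.2, 19.8 and 15.1 CPM in the 4 bexarotene libraries, against 13.4, 12.4, 14.5 and 10.5 CPM in the 4 vehicle libraries. The groups did not overlap in either gene, with bexarotene replicate 4 and vehicle replicate 3 nearest to each other. Ndufa1 reached a log2 fold change of 0.46 ± 0.10 (SE; adjusted p 0.362, edgeR). Ndufc1 reached 0.55 ± 0.13 (SE; adjusted p 0.375).

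Ndufa13, also known as the apoptosis-related protein GRIM-19, averaged 81.5 ± 5.41 CPM with bexarotene, against 63.2 ± 6.70 CPM with vehicle (SD, n = 4). Ndufa11 averaged 58.1 ± 2.92 CPM with bexarotene, against 48.3 ± 2.05 CPM with vehicle, and Ndufs5, which lies on the intermembrane side, 18.1 ± 2.33 CPM with bexarotene, against 13.4 ± 1.56 CPM with vehicle. Again no overlap was seen, with log2 fold changes of 0.37, 0.27 and 0.44. In Ndufa8, Ndufa10 and Ndufc2 the groups overlapped, and the log2 fold changes were 0.28, 0.14 and 0.13. Ndufa8 is an intermembrane-side subunit with paired disulfides and Ndufa10 resembles a nucleoside kinase.

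The distal membrane arm was less uniform. Of its 11 accessory genes, 10 lay above 0 on the log2 scale, the median was 0.27, and in 6 the groups did not overlap. Separated upward were 3.61% of all genes and 18.2% of those from 700 to under 1000 nt above 2 log2 CPM. Of the genes in that length range at that level, 88.3% were higher. Ndufb11, an X-linked subunit, was at 69.4, 59.3, 62.6 and 54.8 CPM in the 4 bexarotene libraries, against 41.3, 49.2, 47.4 and 39.6 CPM in the 4 vehicle libraries. Each bexarotene library lay above each vehicle library, and bexarotene replicate 1 was the highest. This gave a log2 fold change of 0.47 ± 0.10 (SE; adjusted p 0.36, edgeR).

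Ndufab1 is the mitochondrial acyl carrier protein, which also serves lipoic acid synthesis and binds LYR subunits in both arms of the complex. It was at 7.88, 8.10, 6.03 and 6.87 CPM in the 4 bexarotene libraries, against 4.21, 4.93, 3.96 and 5.41 CPM in the 4 vehicle libraries. Both groups were separate, but the counts were low for a subunit of the complex, and 2 processed pseudogenes share a near-identical stretch with it. Ndufab1 thus had a log2 fold change of 0.64 ± 0.16 (SE; adjusted p 0.375, edgeR).

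Ndufb4 was the subunit gene with the most negative difference. It was at 3.85, 2.88, 3.04 and 2.68 CPM in the 4 bexarotene libraries, against 3.32, 4.08, 4.23 and 3.42 CPM in the 4 vehicle libraries. Bexarotene replicate 1 lay inside the vehicle range, and the other 3 bexarotene libraries lay below every vehicle library. Ndufb4 had a log2 fold change of -0.28 ± 0.18 (SE; adjusted p 0.732, edgeR). Ndufb4 was also one of the genes with the lowest levels, and it too has 2 near-identical processed pseudogenes, 1 of them named Ndufb4c.

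Ndufb7, a subunit of the intermembrane face, averaged 46.5 ± 5.73 CPM with bexarotene, against 33.9 ± 4.01 CPM with vehicle (SD, n = 4). Ndufb10 averaged 81.1 ± 6.53 CPM with bexarotene, against 64.0 ± 9.05 CPM with vehicle. Ndufb9, another LYR protein, averaged 127 ± 1.93 CPM with bexarotene, against 106 ± 15.1 CPM with vehicle. Ndufb8 averaged 93.8 ± 3.52 CPM with bexarotene, against 84.0 ± 4.73 CPM with vehicle. In these 4 genes the groups did not overlap, with log2 fold changes of 0.45, 0.34, 0.27 and 0.16. Ndufb2, Ndufb3, Ndufb5 and Ndufb6 had log2 fold changes of 0.24, 0.33, 0.20 and 0.08, with overlapping groups. Ndufb6 differed by 0.32 in replicates 1 and 3, and by -0.17 in replicates 2 and 4.

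Ndufa4 bears a complex I name but is counted today with complex IV. It averaged 139 ± 7.57 CPM with bexarotene, against 117 ± 9.0 CPM with vehicle (SD, n = 4), without overlap, and had a log2 fold change of 0.25 ± 0.08 (SE).

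The subunits did not have the same level. Per kilobase of annotated transcript, Ndufa4 was highest, at 228 ± 12.4 CPM per kb under bexarotene and 192 ± 14.8 under vehicle (SD, n = 4), followed by Ndufb9 and Ndufb8. The median gene was at 67.8 CPM per kb under bexarotene and 54.5 under vehicle. From the fourth to the 28th place under vehicle, each gene's interval of 1 SD overlapped that of the next in the order. At the bottom were Ndufs3 (12.8 and 11.3 CPM per kb under bexarotene and vehicle), Ndufb4 (3.20 and 3.87) and Ndufab1 (2.08 and 1.33), below every other subunit gene under both treatments. These 3 genes have near-identical processed pseudogenes, as do Ndufa12, Ndufb3, Ndufb11, Ndufs5 and Ndufs6, and how such reads were counted is not given. The matched transcript of Ndufab1 is the longest of the 37, at 3479 nt, which lowers its value per length. By this scale Ndufa3 stood sixth under bexarotene and 16th under vehicle.

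**Figure D3:**
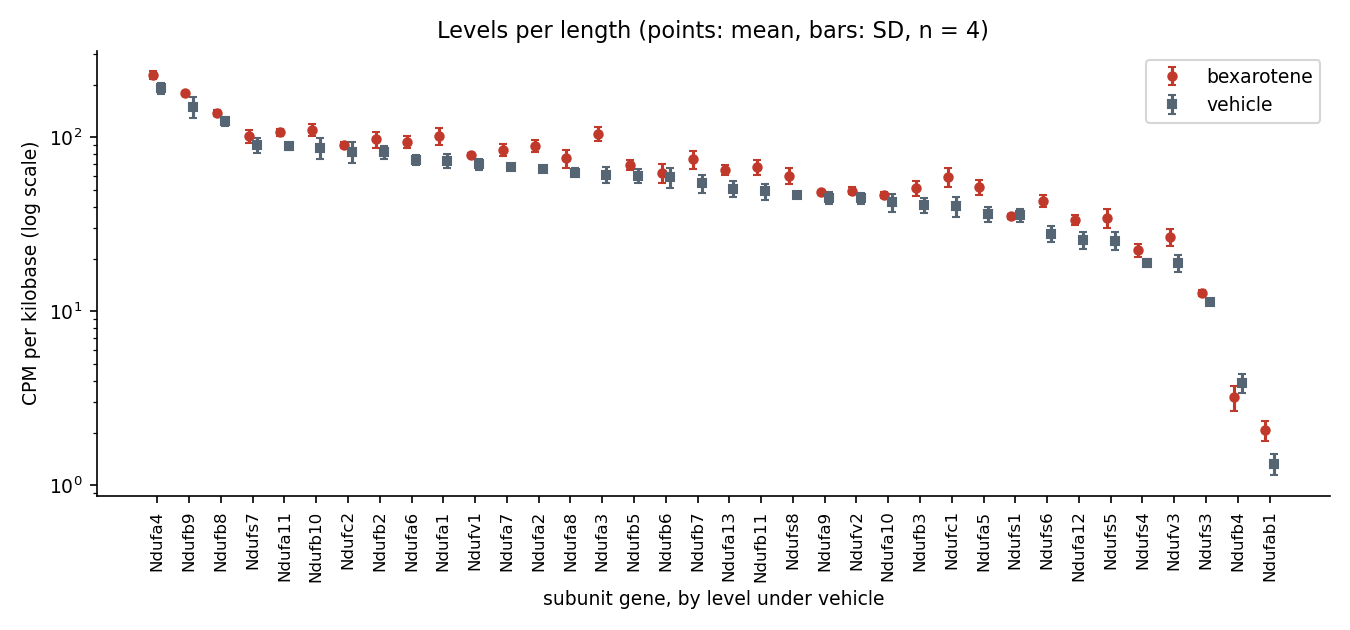
Level of 36 subunit genes in CPM per kilobase of annotated transcript (vertical axis, log scale), mean with bars of 1 SD over 4 libraries, bexarotene (red) left of vehicle (grey). Most genes lie between 19.0 and 192 CPM per kb under vehicle, and Ndufs3, Ndufb4 and Ndufab1 lie below.

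The difference between the groups was not equal over the libraries. The median of the 37 genes, as log2 CPM relative to each gene's mean over the 8 libraries, was 0.26, 0.10, 0.22 and 0.06 in bexarotene replicates 1 to 4, against -0.23, -0.08, -0.09 and -0.17 in vehicle replicates 1 to 4. Every bexarotene library was above every vehicle library, and bexarotene replicates 1 and 3 stood highest. The median log2 fold change was 0.41 in replicates 1 and 3 alone and 0.22 in replicates 2 and 4 alone. Of the 37 genes, 33 were higher under bexarotene in both subsets, and 29 had the larger difference within replicates 1 and 3. In replicates 1 and 3 alone, edgeR's quasi-likelihood test on 2 libraries a group called 13 of the 37, against 2.06% of all genes; in replicates 2 and 4 alone it called 0, with 11 higher at an unadjusted p under 0.05, against 2.97% of all genes. Bexarotene replicates 1 and 3 also had the highest striatal marker sums and, with vehicle replicate 1, the lowest neuronal marker sums, at 4132 and 4625 CPM, against 4902 CPM in vehicle replicate 1 and 5621 to 5813 CPM in the other 5 libraries. Vehicle replicates 1 and 3 held Xist (248 and 307 CPM), and vehicle replicates 2 and 4 held Y-linked transcripts (134 and 141 CPM). Each bexarotene library held both, so the replicate subsets also differ in the sex transcripts of their vehicle libraries. Whether these differences have a part in the levels of the subunit genes was not tested.

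The core subunits, by contrast, had the smaller median in replicates 1 and 3. Their median log2 difference came to 0.12 for replicates 1 and 3 and 0.20 for replicates 2 and 4. The same values were 0.44 and 0.27 for the matrix arm accessory genes, 0.49 and 0.24 for the proximal membrane arm, and 0.43 and 0.11 for the distal membrane arm. The contrast between core and accessory genes was not tested.

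**Figure D4:**
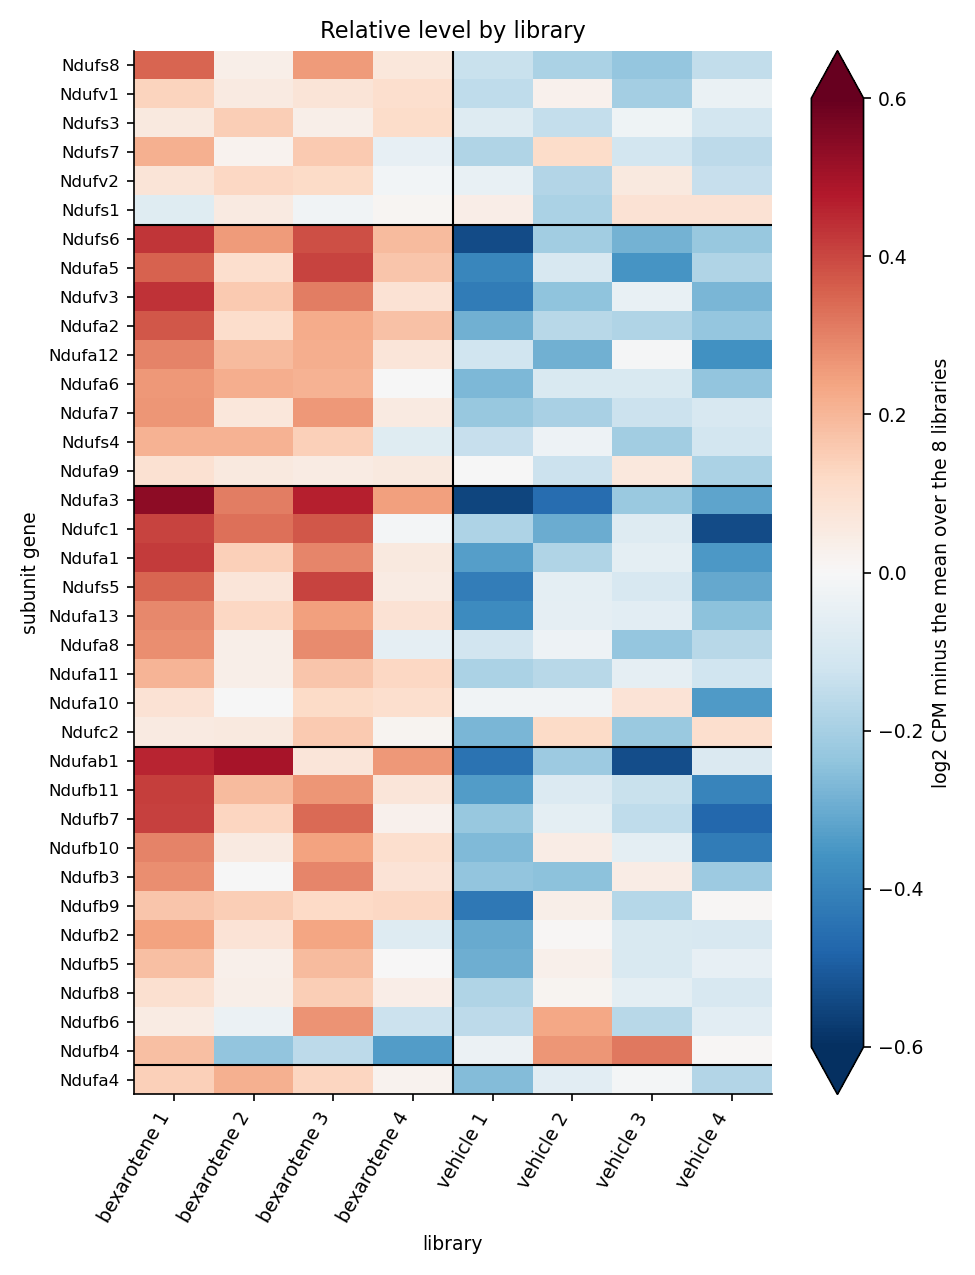
Relative level of 36 subunit genes (rows, grouped as core, matrix arm, proximal and distal membrane arm, and Ndufa4) in each library (columns), as log2 CPM minus the gene's mean over the 8 libraries. Red is above and blue below that mean; 34 of these 36 genes have their highest value in a bexarotene library and 35 their lowest in a vehicle library.

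Transcripts of complex I subunits are short, and short transcripts as a whole were higher under bexarotene. The 37 transcripts had a median length of 758 nt, against 3169.5 nt for the 11601 genes with a mean above 2 log2 CPM. Among all genes under 700 nt at that level (212 genes), the median log2 fold change was 0.25, 85.8% were higher, and 27.8% had each bexarotene library above each vehicle library. The 16 complex I genes of that length had a median of 0.37; 12 lay above the median of all genes of their length, 8 above the third quartile, and in 13 the groups did not overlap. From 700 to under 1000 nt, the median was 0.33 for 9 complex I genes and 0.20 for all 358 genes, of which 18.2% were separated upward. From 1500 to under 2000 nt, it was 0.18 for 5 complex I genes and 0.06 for all 1247 genes. Over the 37 genes the log2 fold change correlated with length at a Spearman rho of -0.39, a description across genes that share the same libraries.

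**Figure D5:**
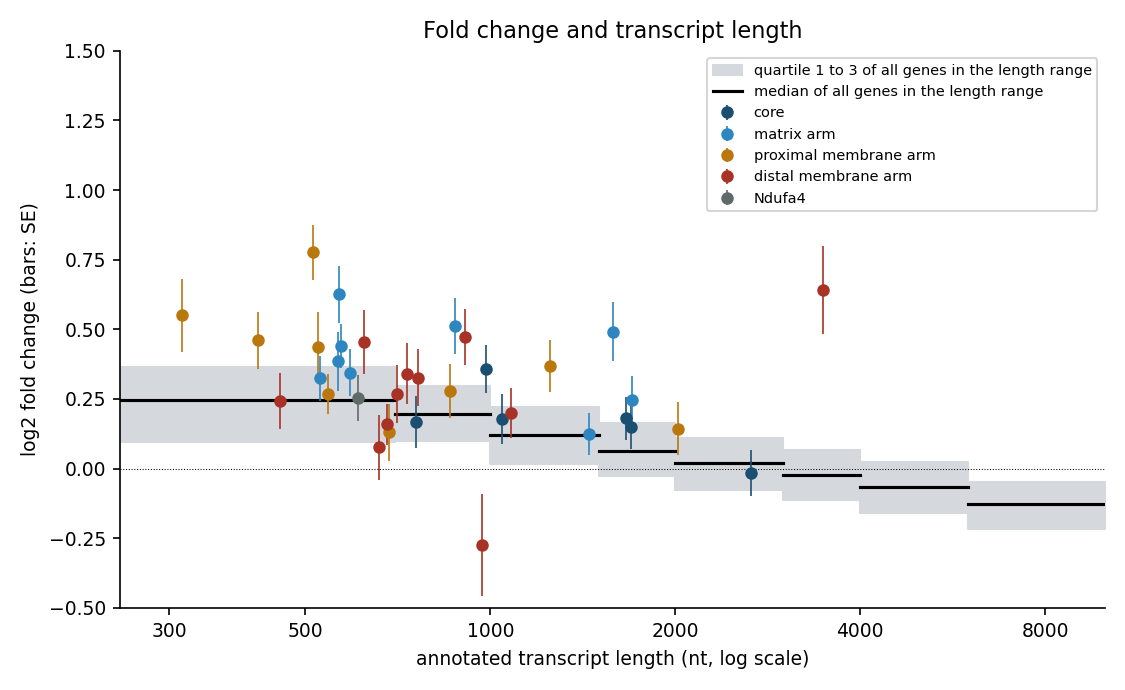
Log2 fold change of 36 subunit genes (points, bars of 1 SE) against annotated transcript length (log scale). Grey boxes span quartile 1 to quartile 3, and black lines the median, of all genes with a mean above 2 log2 CPM in each length range; the median is 0.25 under 700 nt and -0.13 above 6000 nt.

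A correction for transcript length and GC content in each library reduced the difference. With it, the median log2 fold change of the 37 genes was 0.13, against -0.02 for all genes, and 31 were higher, against 44.9% of all genes. At an unadjusted p under 0.05, 15 were higher, against 2.79% of all genes, and 1, Ndufb4, was lower, against 3.23%. The groups did not overlap, with bexarotene higher, in 13 of the 37, against 1.98% of all genes, in 2 the order was the opposite, against 2.28%, and edgeR's quasi-likelihood test called 0 at an adjusted p below 0.05. Ndufa3 stayed at 0.57, with an adjusted p of 0.195, Ndufab1 at 0.67 and Ndufs6 at 0.40, while Ndufs8 was at 0.16. Ndufb6, Ndufb8, Ndufc2 and Ndufs7 turned negative, at -0.09, -0.06, -0.04 and -0.02. By place in the complex, the corrected median was 0.03 for core genes, 0.22 for the accessory genes of the matrix arm and of the proximal membrane arm, and 0.07 for the distal membrane arm.

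Assembly factors of complex I had a median near 0. Of 11 measured factors, 7 lay above 0 on the log2 scale, against 50.2% of all genes, and 4 lay below, the median being 0.01. In edgeR's quasi-likelihood test 0 were called, with 1 higher at an unadjusted p under 0.05, against 4.88% of all genes. Ecsit averaged 33.0 ± 1.64 CPM with bexarotene, against 28.9 ± 2.10 CPM with vehicle (SD, n = 4), a log2 fold change of 0.19 ± 0.08 (SE). Ndufaf4 was at -0.21 ± 0.10 and Ndufaf2 at 0.28 ± 0.14. The factors have longer transcripts, with a median of 2232 nt.

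The other respiratory complexes lay between. All 4 genes of complex II were higher (median 0.12), as were 7 of 9 of complex III (0.18), 9 of 10 of complex IV (0.27) and 15 of 15 of ATP synthase (0.14), against 50.2% of all genes. Among genes above 2 log2 CPM in the length range of each list's median, 55.4%, 78.3%, 85.8% and 88.3% were higher, in the same order. In edgeR's quasi-likelihood test 0 of these 38 were called, with 16 higher at an unadjusted p under 0.05, against 4.88% of all genes. With the length and GC correction, 2 of 4 genes of complex II (median 0.02), 5 of 9 of complex III (0.02), 7 of 10 of complex IV (0.10) and 11 of 15 of ATP synthase (0.04) were higher, against 44.9% of all genes. Without it, the smallest p belonged to Atp5k, a small subunit of ATP synthase, at 38.6 ± 3.80 CPM with bexarotene, against 22.4 ± 3.85 CPM with vehicle (SD, n = 4), a log2 fold change of 0.78 ± 0.13 (SE). Cox6c was at 0.50 ± 0.11 and Uqcrh at 0.36 ± 0.08. Of 14 regulators of mitochondrial biogenesis, 9 were lower, with a median of -0.08, against 49.8% of all genes and 57.6% to 68.8% of genes above 2 log2 CPM from 3000 to under 6000 nt, the range that holds the median length of this list (3961 nt). None was called, with 2 lower at an unadjusted p under 0.05 in edgeR's test, against 3.89% of all genes. Gabpa, a subunit of an ETS factor that drives respiratory genes, was at -0.20 ± 0.08 and the coactivator gene Ppargc1a at -0.32 ± 0.17. Matrix enzymes and import proteins, such as Mdh2 (0.19 ± 0.07), were higher in 15 of 16, against 50.2% of all genes, with a median of 0.10. None of them was called, with 1 higher at an unadjusted p under 0.05 in edgeR's test, against 4.88% of all genes. With the correction 10 of 16 were higher, with a median of 0.03. The corrected median was -0.02 for the assembly factors, 5 of 11 of which were higher.

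The promoters of the subunit genes were searched for letters bound by factors known to drive respiratory genes. Whether such factors have a part in the differences was not tested. Both strands were read. RefSeq windows on GRCm38.p6, 250 bases before to 50 bases after a start, were found for 33 of the 37 genes, 35 windows in all. The YY1 letters AAGATGGCG occurred on either strand in 5 of these 35 windows (14.3%), against 1.4% of all 32851 windows. The NRF1 core GCATGCGC occurred in 3 (8.57%, against 2.71%) and the ETS letters CCGGAAG in 4 (11.4%, against 8.86%). The nuclear receptor core AGGTCA, the letters read by retinoid X receptors and their partners, occurred in 7 (20%, against 16.3%), and the ERR letters TCAAGGTCA, which contain that core, in 0 (against 0.423%). A match is a description of letters and not a bound site.

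The 5 YY1 matches are shown because they lie at nearly the same place, 23 to 36 bases after the start and on the sense strand, and contain the letters ATG. Capitals mark the motif, and each stretch of 30 bases is given 5′ to 3′ on GRCm38.p6, from RefSeq.
Ndufs6, chr13:73328433-73328462, minus strand: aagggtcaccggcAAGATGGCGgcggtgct
Ndufc1, chr3:51408914-51408943, minus strand: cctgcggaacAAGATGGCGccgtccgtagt
Ndufs4, chr13:114388045-114388074, minus strand: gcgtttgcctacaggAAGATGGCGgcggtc
Ndufs7, chr10:80249463-80249492, plus strand: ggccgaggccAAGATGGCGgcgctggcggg
Ndufa9, chr6:126849096-126849125, minus strand: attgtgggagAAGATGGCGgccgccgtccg
These genes did not have differences of 1 size: Ndufs6 had a log2 fold change of 0.63, Ndufc1 0.55, Ndufs4 0.25, Ndufs7 0.17 and Ndufa9 0.12. Their median was 0.25, against 0.33 for the 28 genes with a window and without the letters.

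The 3 windows with the NRF1 core are shown for comparison, and there the match lies before the start.
Ndufa6, chr15:82354356-82354385, minus strand: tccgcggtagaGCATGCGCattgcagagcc
Ndufa8, chr2:36049328-36049357, minus strand: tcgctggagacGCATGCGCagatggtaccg
Ndufa11, chr17:56717693-56717722, plus strand: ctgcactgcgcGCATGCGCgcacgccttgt
The match begins 83, 8 and 58 bases before the start in Ndufa6, Ndufa8 and Ndufa11, whose log2 fold changes were 0.34, 0.28 and 0.27; Ndufa11 also holds an overlapping match on the other strand, 60 bases before the start. Ndufa3, with the largest difference, had none of the searched letters in its window, whose 250 bases before the start are shown in lower case.
Ndufa3, chr7:3617123-3617372, plus strand: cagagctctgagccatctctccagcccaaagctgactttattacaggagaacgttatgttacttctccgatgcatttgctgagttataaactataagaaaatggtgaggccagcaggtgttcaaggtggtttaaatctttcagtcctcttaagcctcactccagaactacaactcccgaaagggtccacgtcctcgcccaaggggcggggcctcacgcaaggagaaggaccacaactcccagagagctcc
Genes with the core AGGTCA had a median log2 fold change of 0.34 (7 genes), against 0.30 for the 26 without.

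Of the 37 genes, 10 overlap another annotated gene on GRCm38.p6 and 8 have a processed pseudogene with a stretch of at least 100 bases at 95% identity or more. The strand setting of the counting is not given, so reads of overlapping genes cannot be told apart. The median log2 fold change was 0.32 over the 27 genes without an overlapping gene and 0.27 over the 29 without such a pseudogene. Over the 8 genes with such a pseudogene it was 0.41, a contrast that was not tested.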

How the data were processed

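Per the labels' protocols, cortex RNA came from RNeasy columns (Qiagen), and the TruSeq Stranded mRNA kit made the libraries. The authors deposited raw counts per RefSeq transcript, 28644 rows for 22869 gene symbols, and 0 value columns were left out. The submitters' processing notes name the build mm9 and edgeR. Aligner, counter and strand setting: not given in the sources used here.

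Titles gave the groups and replicate numbers. The members and lists were chosen with earlier results of these data known. The test was the quasi-likelihood F test of edgeR 4.0.16, run in R 4.3.3, with TMM normalization, filterByExpr at its defaults, a robust fit and only the group as a term, adjusted over 21285 rows (16069 genes, each shown by the row of highest mean count). CPM are counts scaled by the tested total times the TMM factor, and log2 CPM used a prior count of 2. Standard errors derive from the F statistic. The fit was tested on simulated data. DESeq2 1.42.0 and limma voom 3.58.1 were alternatives. Lengths and GC content came from GENCODE M21 transcripts (99.1% of rows matched), used as a smooth offset per library in 1 alternative. Pseudogene stretches were found with blastn 2.17.0. Genes shown in every library were, by rule, the 10 with the smallest p, those with negative log2 fold changes and the core subunits, of which 1 is not reported here or drawn.

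The correlation of same-numbered libraries' distances from their group means was 0.43, 0.28, 0.14 and 0.16 for replicates 1 to 4, each above the 0.1 set for reading the numbers as pairs. The printed fits have no replicate block, and a fit with it was an alternative. Only titles and this check bear on the pairing. Bexarotene replicates 3 and 4 correlated more with vehicle replicates 1 (0.44) and 2 (0.23) than with their own number.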

Additional observations from a re-analysis of the deposited data

Results flagged for a closer look

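In 2 of the 74 groups of 4 libraries (37 genes in each treatment), a library stood far from the other 3, measured by its gap to the nearest over the whole range by Dixon's test. Chance flags about 1 in 20 groups. Ndufb3 was at 35.8 CPM in vehicle replicate 3 and at 29.2 to 29.8 CPM in the other vehicle libraries. Ndufa9 was at 71.7 CPM in bexarotene replicate 1 and at 69.9 to 70.2 CPM in the other bexarotene libraries, a narrow range throughout.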

How the results depend on the processing

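Of 703 single-gene alternatives (37 genes, 19 settings), 664 kept direction and side of the threshold and 31 genes kept their sign in all. The median log2 fold change was 0.26 to 0.34 when 1 library was left out, and 0.27 to 0.31 with RLE or upper quartile normalization, no filter, DESeq2, voom, summed rows or the replicate block, which changed no call (0 of 37 called, median 0.28). It was 0.13 with the length and GC offset, 0.13 with that offset and the replicate block, and 0.41 in replicates 1 and 3 alone. Called genes, all higher, numbered 9 in DESeq2, against 0.436% of all genes, and 13 in replicates 1 and 3 alone, against 2.06%. Genes without overlap numbered 13 upward with the offset, against 1.98% of all genes, and 2 downward, against 2.28%. The 13 and the 2 were the same with or without the block. The cause of these shifts was not tested.

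Signs turned for Ndufs1 with upper quartile normalization (0.0151), in replicates 2 and 4 alone (0.079) and on leaving out 1 library (-0.072 to 0.0158). With the offset, Ndufb6 was at -0.0938, Ndufb8 at -0.056, Ndufc2 at -0.0387 and Ndufs7 at -0.0158; with offset and block they were at -0.0895, -0.0568, -0.0294 and -0.016, and Ndufs3 at -6e-04. In replicates 2 and 4 alone, Ndufb6 was at -0.17 and Ndufc2 at -0.0713. Leaving out 1 library gave Ndufb6 -0.0054 to 0.18. Depth gave each subunit gene at least 141 counts per library, and 4 libraries a group limit the precision as well.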
